A study of Mus musculus with 13 samples.

Results

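The coagulation and fibrinolysis genes described here are 9 genes of blood clotting and clot removal: *F3*, *F5*, *F7*, *F10*, *F13a1*, *Thbd*, *Tfpi*, *Procr* and *Plau*. They were chosen by function from the 18193 genes of the array, with earlier results of these data known. *F5* and *F10* were also selected on these same arrays because they had been seen to differ between groups. For these 2 genes the values below are a description and no test is given. The 9 genes had 16 probe sets, and each gene is represented by the one that was brightest on average across the 13 arrays. All 9 passed the filter on low values that left 15384 genes for testing.

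Profiles came from mice carrying tumors of SKOV3ip1, a human ovarian cancer line labeled with luciferase. The methods list female athymic nude mice, which lack a working thymus, for this model, and the labels give no age or strain for single arrays. Profiles fell into a B20-resistant group (n = 4), a B20-sensitive group (n = 4) and a control group (n = 5). B20, a murine antibody that neutralizes the vessel growth factor VEGF-A, was given to both B20 groups. In the methods the other mice received a control IgG, while the labels call the third group only control. Mice under B20 were placed in the sensitive or resistant group by the bioluminescence of their tumors, so these groups were not made by a randomized treatment. The introduction of the paper names collection before treatment, at maximal response and at progression. The labels do not say whether control cells were taken before treatment or from mice given control IgG. Time of harvest is therefore also open in both comparisons with control. Between the 2 B20 groups, response, time of harvest and length of B20 treatment cannot be told apart here. Cells were sorted on CD31, a surface protein of endothelium that is also found on platelets and some macrophages, after a step meant to remove platelets. RNA was read on Affymetrix mouse probe sets, and the values are treated as log2 intensities after quantile normalization. Values under a floor of 2.01, the 30th percentile of all values, were set to the floor.

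Clotting starts when tissue factor, encoded by *F3*, binds factor VII (*F7*) and the pair activates factor X (*F10*). Factor Xa with its cofactor factor V (*F5*) turns prothrombin into thrombin, thrombin makes fibrin, and factor XIII (*F13a1* encodes its catalytic chain) cross-links the fibrin. Thrombomodulin (*Thbd*) and the endothelial protein C receptor (*Procr*) turn thrombin toward activation of the anticoagulant protein C, tissue factor pathway inhibitor (*Tfpi*) blocks the first complex, and urokinase (*Plau*) activates plasminogen, which dissolves fibrin. Plasma factors VII and X are made mainly by the liver, but macrophages can also make them, and resident macrophages of the mouse peritoneal cavity are known to express *F5*, *F7* and *F10*. Endothelium carries *Thbd*, *Procr* and *Tfpi*, and mesothelial cells, which line the peritoneal cavity, also carry thrombomodulin.

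The arrays of one group were not alike, and the cell type markers below stand beside each result they move with. *Pecam1*, which encodes CD31 itself, read 3.41, 2.91, 3.27 and 2.74 on the resistant arrays, 3.16, 2.64, 2.32 and 2.83 on the sensitive arrays and 2.39, 2.42, 2.61, 6.56 and 6.56 on the control arrays. Endothelial transcripts were thus high on control arrays 4 and 5 alone, where a list of 20 endothelial genes had medians of 6.76 and 7.08 against at most 4.22 on the other arrays. The labels call the sorted cells endothelial, and these markers were low on all arrays but those 2. The median of 20 macrophage and monocyte genes was 8.74 to 10.25 on the resistant arrays, 4.47, 4.82, 5.0 and 9.86 on sensitive arrays 1 to 4 and 8.22 to 9.97 on the control arrays, so sensitive arrays 1 to 3 were low and sensitive array 4 was not. Sensitive arrays 1 and 2 and resistant arrays 2 and 3 had the highest medians of 11 mesothelial genes (6.61, 7.23, 6.74 and 5.41). Sensitive array 4 had the largest 3′ over 5′ difference of the *Actb* and *Gapdh* control probes, a sign of RNA quality, at 5.95 against 2.23 to 3.82 elsewhere. In such bulk samples fewer cells of a type and less RNA per cell cannot be told apart.

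*F10* was high on every resistant and control array and lower on the sensitive arrays. It read 10.05, 8.81, 9.15 and 9.72 on resistant arrays 1 to 4, 5.41, 5.63, 5.53 and 8.53 on sensitive arrays 1 to 4 and 9.47, 9.91, 9.63, 9.30 and 9.41 on control arrays 1 to 5. The resistant and sensitive values did not overlap, nor did the sensitive and control values, while resistant and control values interleaved. Sensitive array 4 stood 2.90 above the next sensitive array and within 0.28 of the lowest resistant array. Group means were 9.43 ± 0.56 (SD, n = 4) in the resistant, 6.28 ± 1.51 (SD, n = 4) in the sensitive and 9.55 ± 0.24 (SD, n = 5) in the control group. The resistant mean was 3.16 (SE 0.57) above the sensitive mean, or 8.92-fold, and the sensitive mean was 3.27 (SE 0.54) below the control mean. Resistant minus control was -0.11 (SE 0.54). Against sensitive array 4 alone, which is then assumed to vary like the other groups, the resistant difference was 0.90 and the sensitive minus control difference was -1.01.

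On the other *F10* probe sets the sensitive mean was again the lowest. Probe set 1418992_at read 7.51, 6.07, 6.38 and 7.45 on the resistant arrays, 2.05, 2.85, 3.19 and 5.77 on the sensitive arrays and 6.38 to 7.29 on the control arrays. Its resistant minus sensitive difference was 3.39 and that of 1418993_s_at was 3.26, beside 3.16 for the main probe set. Sensitive array 4 was the highest sensitive array on all 3 probe sets. As deposited, before quantile normalization, it stood above resistant array 2 on 1418992_at (6.01 against 5.98) and on 1418993_s_at (6.63 against 6.41). On the main probe set it stayed below all resistant arrays as deposited (8.77 against at least 8.85).

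*F7* followed the same arrays. It read 7.94, 5.94, 6.47 and 5.62 on the resistant arrays, 2.74, 2.73, 2.87 and 6.38 on the sensitive arrays and 6.76, 6.86, 6.27, 7.03 and 6.75 on the control arrays. Sensitive arrays 1 to 3 were within 0.14 of each other and far below all other arrays, and sensitive array 4 lay inside the range of both other groups. The means were 6.49 ± 1.03 (SD, n = 4) in the resistant, 3.68 ± 1.80 (SD, n = 4) in the sensitive and 6.73 ± 0.28 (SD, n = 5) in the control group. Resistant minus sensitive was 2.81 (SE 0.72) and sensitive minus control was -3.06 (SE 0.69). Neither passed limma's test over all genes (adjusted p = 0.433 and adjusted p = 0.189), with unadjusted limma p of 0.00162 and 0.000542. Leaving out sensitive array 4 gave 3.72 (adjusted p = 0.000674) and -3.96 (adjusted p = 0.000252) by limma, and leaving out sensitive arrays 1 to 3 gave 0.11 and -0.35. Over all alternatives the adjusted p of limma ran from 0.000674 to 0.996 for the resistant minus sensitive difference and from 0.000252 to 1.00 for sensitive minus control. Resistant minus control was -0.24 (SE 0.69, adjusted p = 1.00).

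*F13a1* had the widest spread among the sensitive arrays. It read 9.95, 7.52, 8.81 and 9.54 on the resistant arrays, 2.01, 3.66, 5.43 and 10.34 on the sensitive arrays and 9.09, 8.74, 8.65, 9.88 and 7.85 on the control arrays. Sensitive array 1 was at the floor and sensitive array 4 was the highest of all 13 arrays. The means were 8.95 ± 1.07 (SD, n = 4) in the resistant, 5.36 ± 3.60 (SD, n = 4) in the sensitive and 8.84 ± 0.74 (SD, n = 5) in the control group. By limma, resistant minus sensitive was 3.59 (SE 1.28, adjusted p = 0.585), sensitive minus control was -3.48 (SE 1.21, adjusted p = 0.312) and resistant minus control was 0.11 (SE 1.21, adjusted p = 1.00). Without sensitive array 4 the first and second of these were 5.25 (adjusted p = 0.00156) and -5.14 (adjusted p = 0.00116). With sensitive array 4 as the only sensitive array they turned round, to -1.39 and 1.50. The adjusted p ran from 0.00156 to 0.966 and from 0.00116 to 0.881 over the alternatives, again by limma.

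**Figure D1:**
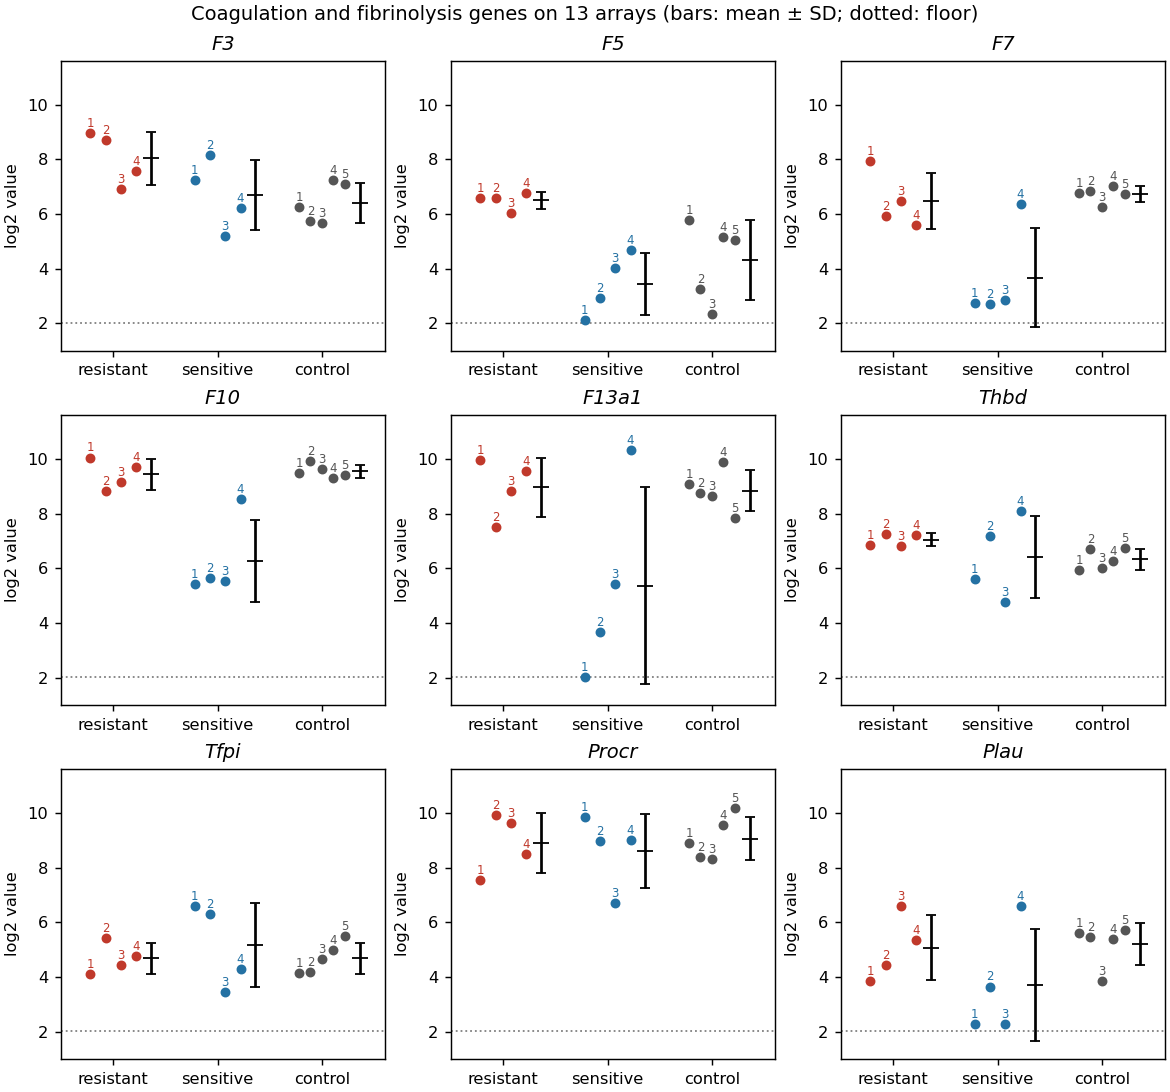
Log2 value of the main probe set of each of the 9 genes (vertical axes) on every array of the resistant, sensitive and control groups, with replicate numbers; bars show mean ± SD and the dotted line is the floor of 2.01. *F7* and *F10* are low on sensitive arrays 1 to 3 and not on sensitive array 4, and the 4 resistant values of *F5* (6.06 to 6.77) lie above all sensitive and control values.

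Markers of macrophages moved with these 3 genes. The 20 macrophage and monocyte genes were all above the floor on at least 1 array of each group, and their summed intensity ran from 15500 to 30100 on the resistant, 1890 to 31500 on the sensitive and 16600 to 28500 on the control arrays. *Csf1r*, the receptor for the main macrophage growth factor, read 10.58 to 11.47 on the resistant arrays, 7.39, 8.61, 7.69 and 11.86 on the sensitive arrays and 10.40 to 11.22 on the control arrays, so the sensitive arrays low in *F10*, *F7* and *F13a1* were low in it too. Liver genes stayed low throughout. A list of 8 hepatocyte genes had medians of 2.57 to 3.18 on the resistant, 2.43 to 3.34 on the sensitive and 2.45 to 3.06 on the control arrays, close to the floor, and *Fabp1* was at the floor on all of them. Platelet genes (10 measured) had medians of 3.47 to 4.36 on the resistant, 3.28 to 4.41 on the sensitive and 3.41 to 4.25 on the control arrays. Their summed intensity was 404 to 1010 on the resistant and 365 to 920 on the control arrays. On sensitive arrays 1 to 4 it was 386, 262.5, 108.1 and 484.3, so it was lowest on sensitive arrays 2 and 3. What part the share of macrophages or platelets had in the differences of *F10*, *F7* and *F13a1* was not tested.

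**Figure D2:**
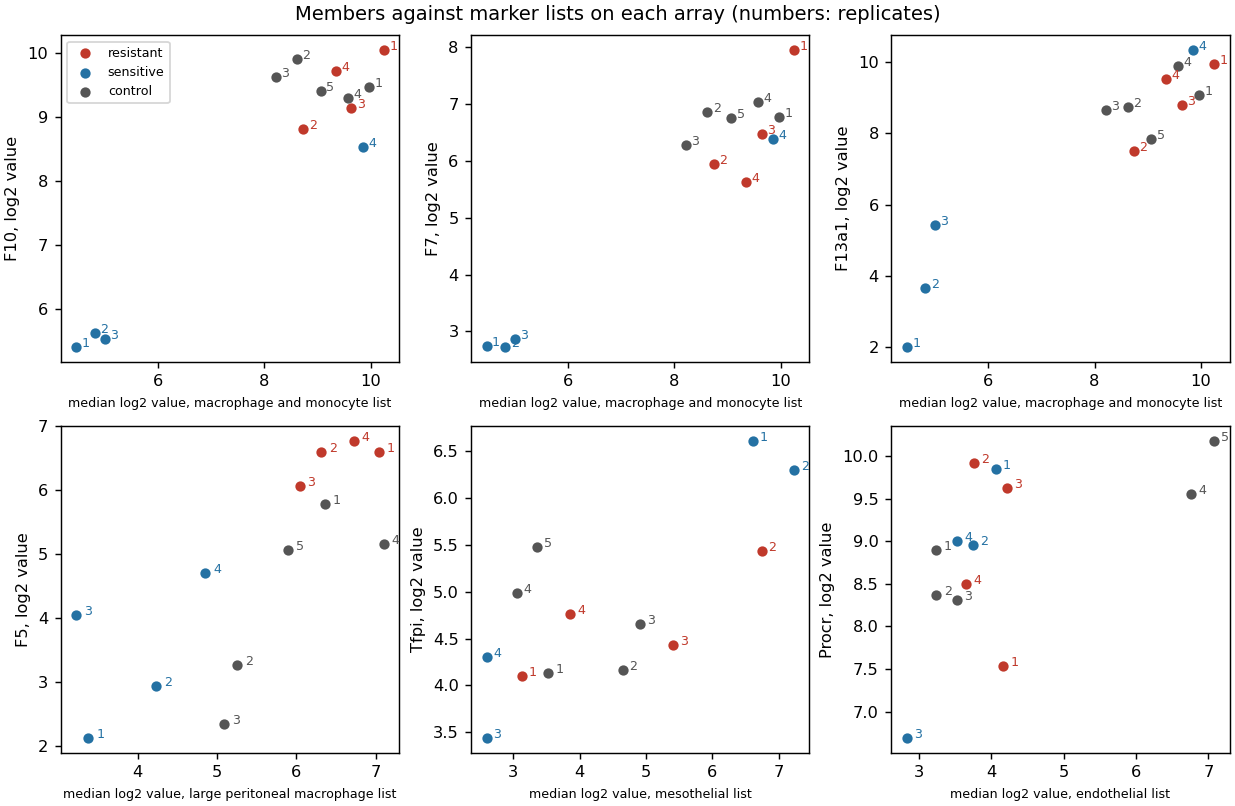
Log2 value of a gene (vertical axes) against the median log2 value of a marker list (horizontal axes) on each of 13 arrays, with replicate numbers, for resistant, sensitive and control arrays. In the 3 upper panels sensitive arrays 1 to 3 lie apart at list medians of 4.47 to 5.0, and among the 10 other arrays *F10* does not rise with the list (r = -0.07).

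Among the 10 arrays other than sensitive 1 to 3, the level of the macrophage list and these genes went together to different degrees. Pearson's r with the list median was 0.66 for *F13a1*, 0.48 for *F7* and -0.07 for *F10*. Between the genes, over the same 10 arrays, r was 0.44 for *F7* with *F10*, 0.33 for *F7* with *F13a1* and 0.06 for *F10* with *F13a1*. These are descriptions over arrays that share groups and normalization.

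*F7* and *F10* are adjacent protein-coding genes on mouse chromosome 8, followed by *Proz*, which encodes protein Z, in the RefSeq gene table. *Proz* was above the floor on 1 of 13 arrays, so its values cannot show whether it shared the low and high arrays of *F7* and *F10*. *F13a1* lies on chromosome 13 and *F5* on chromosome 1. The windows around the starts of *F10*, *F7* and *F13a1* are shown with that of *F5*, the other gene selected on these arrays, to set their letters side by side. They are RefSeq sequences of build GRCm38.p6, from 250 bases before to 50 bases after the start, written 5′ to 3′, and capitals mark GAGGAA or its reverse complement TTCCTC, a core bound by PU.1 (a macrophage regulator) and other ETS factors. The windows are chr8:13037058-13037357 (plus strand) for *F10*, chr8:13025784-13026083 (plus strand) for *F7*, chr13:37050195-37050494 and chr13:37049164-37049463 (both minus strand) for *F13a1*, and chr1:164151585-164151884 (plus strand) for *F5*.
F10: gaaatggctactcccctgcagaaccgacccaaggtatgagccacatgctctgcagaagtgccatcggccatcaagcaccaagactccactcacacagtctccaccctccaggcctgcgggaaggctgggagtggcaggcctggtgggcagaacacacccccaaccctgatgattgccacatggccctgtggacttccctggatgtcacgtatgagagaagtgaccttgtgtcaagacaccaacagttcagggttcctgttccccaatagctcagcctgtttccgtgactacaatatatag
F7: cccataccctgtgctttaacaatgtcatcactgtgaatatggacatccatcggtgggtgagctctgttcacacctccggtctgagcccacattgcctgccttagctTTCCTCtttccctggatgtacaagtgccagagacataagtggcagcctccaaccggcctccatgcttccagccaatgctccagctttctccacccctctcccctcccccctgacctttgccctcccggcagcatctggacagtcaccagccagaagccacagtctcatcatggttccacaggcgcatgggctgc
F13a1, first start: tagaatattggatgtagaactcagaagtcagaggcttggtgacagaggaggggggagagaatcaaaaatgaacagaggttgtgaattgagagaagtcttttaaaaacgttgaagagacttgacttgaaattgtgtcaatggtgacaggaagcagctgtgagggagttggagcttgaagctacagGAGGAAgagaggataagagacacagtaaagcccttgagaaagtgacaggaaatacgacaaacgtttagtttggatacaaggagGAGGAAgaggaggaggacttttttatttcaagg
F13a1, second start: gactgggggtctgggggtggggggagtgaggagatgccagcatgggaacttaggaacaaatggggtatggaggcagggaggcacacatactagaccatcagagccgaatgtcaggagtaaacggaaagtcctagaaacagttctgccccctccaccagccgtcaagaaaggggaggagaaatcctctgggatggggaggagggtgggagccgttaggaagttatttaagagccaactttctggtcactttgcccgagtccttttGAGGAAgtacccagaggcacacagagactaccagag
F5: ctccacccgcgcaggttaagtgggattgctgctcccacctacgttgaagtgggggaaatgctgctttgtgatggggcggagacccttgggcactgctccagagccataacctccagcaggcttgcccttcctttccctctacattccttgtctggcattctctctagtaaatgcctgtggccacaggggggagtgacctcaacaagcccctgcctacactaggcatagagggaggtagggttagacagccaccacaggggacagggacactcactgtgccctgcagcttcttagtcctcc
The core occurred 0 times in the *F10* window, 1 time in that of *F7*, 2 and 1 times in those of *F13a1* and 0 times in that of *F5*, against 28.3% of all 32851 promoter windows with at least 1 copy. ACGTG, the core of the hypoxia response element, was in the *F10* window (1 copy) and not in the *F7*, *F13a1* or *F5* windows, and it was in 19.6% of all windows. Of the 9 genes, 7 had an entry in this table, with 9 entries in all. Each motif was searched on both strands, and a match is a description of letters only.

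*F5* set the resistant arrays apart from both other groups. It read 6.60, 6.60, 6.06 and 6.77 on the resistant arrays, 2.12, 2.93, 4.04 and 4.70 on the sensitive arrays and 5.78, 3.26, 2.34, 5.16 and 5.07 on the control arrays. Every resistant value was above every sensitive and every control value, while sensitive and control values overlapped. The resistant mean was 6.51 ± 0.31 (SD, n = 4), the sensitive mean 3.45 ± 1.15 (SD, n = 4) and the control mean 4.32 ± 1.45 (SD, n = 5). Resistant minus sensitive was 3.06 (SE 0.71, 8.34-fold), resistant minus control was 2.18 (SE 0.68, 4.55-fold) and sensitive minus control was -0.88 (SE 0.68). The second probe set, 1418907_at, read 6.38, 7.05, 5.64 and 5.93 on the resistant arrays, 2.05, 2.01, 3.48 and 4.38 on the sensitive arrays and 5.55, 2.93, 2.36, 5.50 and 4.99 on the control arrays. Its resistant values again stood above the rest, though narrowly (5.64 against 5.55). As deposited, before quantile normalization, they overlapped the control values, with resistant array 4 at 5.58 and control arrays 1 and 4 at 5.81 and 5.75. The main probe set stayed apart as deposited (lowest resistant value 6.29, highest control value 6.08). Against sensitive array 4 alone, resistant minus sensitive was 1.81, and sensitive minus control turned to 0.38.

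Genes of large peritoneal macrophages, the resident macrophages of the peritoneal cavity, moved with *F5*. Their 16-gene list had medians of 6.04 to 7.04 on the resistant, 3.23 to 4.85 on the sensitive and 5.09 to 7.10 on the control arrays, with summed intensities of 7820 to 10400, 858 to 8040 and 5590 to 8910 in the same groups. All 16 genes were above the floor on at least 1 resistant and 1 control array, and 15 were on at least 1 sensitive array, *Rarb* being at the floor on all 4. The defining factor *Gata6* read 5.06, 5.89, 6.0 and 4.68 on the resistant arrays, 7.53, 6.73, 2.67 and 3.20 on the sensitive arrays and 4.17 to 4.98 on the control arrays, so it did not follow *F5* and was highest where mesothelial genes were high. Over 13 arrays *F5* and the list median had r = 0.78 (rho = 0.80), and r = 0.74 over the 10 arrays without sensitive 1 to 3. This was not particular to *F5*. Over 13 arrays r with this median was 0.85 for *F10*, 0.83 for *F7* and 0.77 for *F13a1*. Over the 10 arrays it was 0.30, 0.29 and 0.15 for them, and 0.73 for *F3*. With the macrophage and monocyte median *F5* had r = 0.71 over 13 arrays and 0.63 over the 10. Control arrays 2 and 3 had the lowest *F5* of their group (3.26 and 2.34) and also its lowest list medians (5.25 and 5.09). They had the lowest macrophage and monocyte medians of their group too (8.62 and 8.22). The part of these macrophages in the *F5* difference was not tested.

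**Figure D3:**
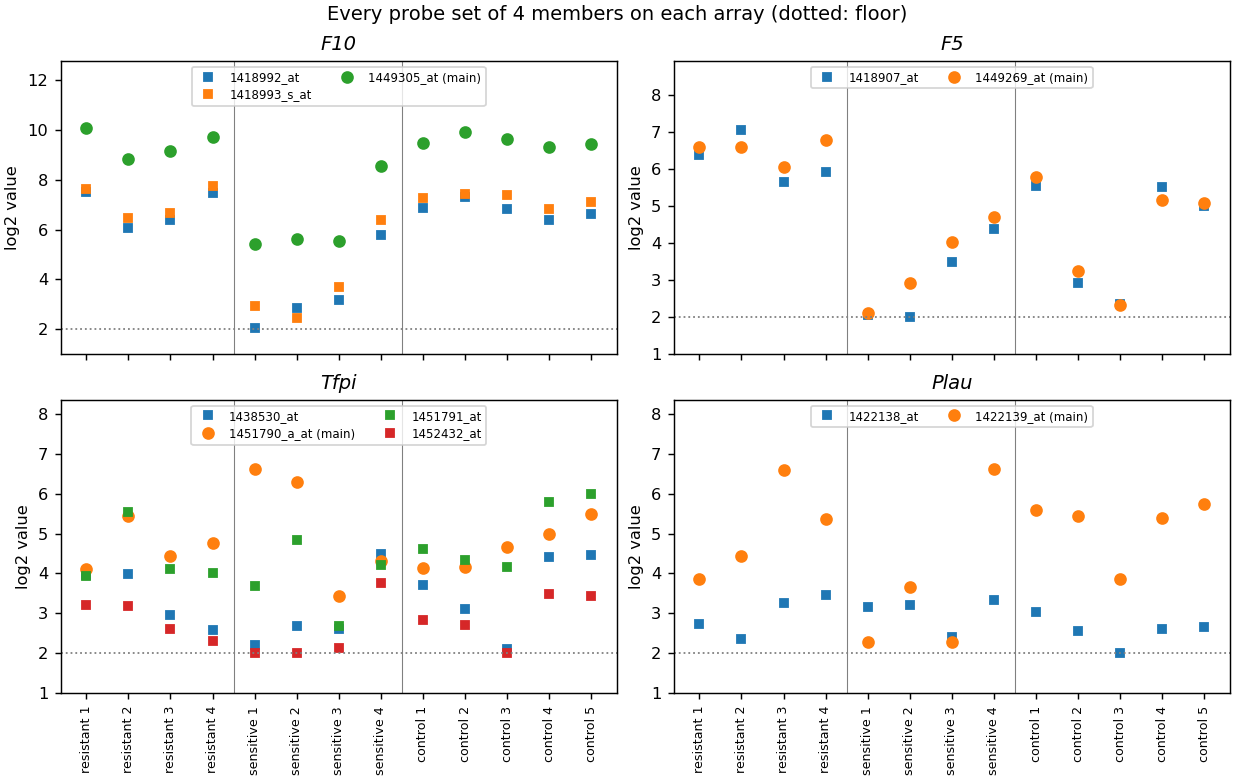
Log2 value of every probe set of *F10*, *F5*, *Tfpi* and *Plau* (vertical axes) on each resistant, sensitive and control array (horizontal axes); circles are the main probe set, squares the others, and the dotted line is the floor of 2.01. All 3 probe sets of *F10* have their lowest group mean in the sensitive group, both of *F5* their highest in the resistant group, and on sensitive arrays 1 and 2 *Tfpi* is high on its main probe set only.

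Tissue factor, *F3*, was highest on the resistant arrays by mean, with overlap. It read 8.97, 8.73, 6.92 and 7.58 on the resistant arrays, 7.25, 8.16, 5.20 and 6.22 on the sensitive arrays and 6.25, 5.76, 5.66, 7.26 and 7.10 on the control arrays. Resistant arrays 1 and 2 exceeded all arrays of the other groups, and resistant arrays 3 and 4 lay among them. The means were 8.05 ± 0.97 (SD, n = 4), 6.71 ± 1.28 (SD, n = 4) and 6.40 ± 0.74 (SD, n = 5) in the resistant, sensitive and control groups. By limma, resistant minus control was 1.65 (SE 0.60, 3.13-fold, adjusted p = 1.00, unadjusted p = 0.0158), resistant minus sensitive was 1.34 (SE 0.63, adjusted p = 0.709) and sensitive minus control was 0.30 (SE 0.60, adjusted p = 0.823). Without sensitive array 3, resistant minus sensitive was 0.84, and with array weights, which give less weight to arrays far from their group, resistant minus control was 0.81. *F3* did not share the low values of *F7*, its partner, on sensitive arrays 1 and 2. Across the 10 arrays without sensitive 1 to 3, r was 0.80 with *F5*, and 0.19 with *F7*.

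The surface anticoagulant genes differed less between groups. *Thbd* read 6.86, 7.26, 6.81 and 7.22 on the resistant arrays, 5.59, 7.18, 4.78 and 8.08 on the sensitive arrays and 5.93, 6.71, 5.99, 6.26 and 6.74 on the control arrays. The resistant values just cleared the control values (6.81 against 6.74), and the sensitive values spanned both. As deposited, before quantile normalization, resistant and control values overlapped, with resistant array 4 at 6.94 and control array 2 at 6.99. Resistant minus control was 0.71 (SE 0.53, adjusted p = 1.00), resistant minus sensitive was 0.63 (SE 0.56, adjusted p = 0.804) and sensitive minus control was 0.08 (SE 0.53, adjusted p = 0.954), all by limma. With single sensitive arrays left out, resistant minus sensitive ran from 0.085 without sensitive array 3 to 1.19 without sensitive array 4, and with sensitive array 4 as the only sensitive array sensitive minus control was 1.76. *Procr* read 7.54, 9.92, 9.63 and 8.50 on the resistant arrays, 9.85, 8.96, 6.69 and 9.0 on the sensitive arrays and 8.90, 8.37, 8.31, 9.56 and 10.18 on the control arrays. Its groups overlapped throughout, and its limma differences were 0.27 (SE 0.68, adjusted p = 0.918) for resistant minus sensitive, -0.44 (SE 0.64, adjusted p = 0.752) for sensitive minus control and -0.17 (SE 0.64, adjusted p = 1.00) for resistant minus control. Control arrays 4 and 5, the 2 rich in endothelial transcripts, held the highest *Procr* of their group (9.56 and 10.18). The summed intensity of the 20 endothelial genes was 433 to 584 on the resistant, 162 to 759 on the sensitive and 289 to 3710 on the control arrays. Without those 2 arrays resistant minus control was 0.37 and sensitive minus control 0.10. Over 13 arrays *Procr* had r = 0.571 with the endothelial median and 0.492 with the median of 10 fibroblast and pericyte genes. Over the 10 arrays without sensitive 1 to 3 these were 0.565 and 0.621. The parts of these cell types in *Procr* were not tested.

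*Tfpi* depended on the probe set. The main one, 1451790_a_at, read 4.10, 5.44, 4.43 and 4.76 on the resistant arrays, 6.61, 6.30, 3.44 and 4.30 on the sensitive arrays and 4.13, 4.17, 4.66, 4.99 and 5.48 on the control arrays. It was highest on sensitive arrays 1 and 2, which also had the highest mesothelial medians (6.61 and 7.23), with summed mesothelial intensities of 112 to 1350 on the resistant, 101 to 2820 on the sensitive and 111 to 426 on the control arrays. *Msln*, the mesothelial protein mesothelin, read 8.99 and 8.30 there. The limma differences of this probe set were -0.48 (SE 0.62, adjusted p = 0.854) for resistant minus sensitive, 0.48 (SE 0.59, adjusted p = 0.713) for sensitive minus control and -0.0022 (SE 0.59, adjusted p = 1.00) for resistant minus control. The other 3 probe sets had the opposite signs, with resistant minus sensitive differences of 0.37, 0.54 and 0.36 and sensitive minus control differences of -0.56, -1.11 and -0.43. On 1451791_at the highest values were on control arrays 4 and 5 (5.80 and 5.98), which were high in endothelial genes. With the mean of all probe sets the main differences became 0.20 and -0.40. On the main probe set r with the mesothelial median was 0.73 over 13 arrays and 0.319 over the 10 without sensitive 1 to 3. With the fibroblast and pericyte median r was 0.67 and 0.695, and with the endothelial median 0.342 and 0.618. The parts of mesothelial cells, endothelial cells, fibroblasts and pericytes were not tested.

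*Plau*, urokinase, read 3.86, 4.44, 6.59 and 5.36 on the resistant arrays, 2.27, 3.65, 2.27 and 6.61 on the sensitive arrays and 5.59, 5.45, 3.85, 5.40 and 5.73 on the control arrays. Sensitive arrays 1 to 3 were the 3 lowest of all, with sensitive array 4 the highest. The same 3 arrays had the lowest medians of the macrophage and monocyte list (4.47, 4.82 and 5.0), and *Plau* and that median had r = 0.80 (rho = 0.69) over 13 arrays and r = 0.33 over the 10 others. The part of macrophages in the *Plau* difference was not tested. By limma, resistant minus sensitive was 1.36 (SE 0.86, adjusted p = 0.775), sensitive minus control was -1.51 (SE 0.81, adjusted p = 0.461) and resistant minus control was -0.15 (SE 0.81, adjusted p = 1.00). Without sensitive array 4, resistant minus sensitive was 2.33 and sensitive minus control was -2.48 (adjusted p = 0.0366 by limma, with 0.0366 to 0.935 over the alternatives). With it as the only sensitive array they turned to -1.55 and 1.40. The second probe set, 1422138_at, stayed between 2.01 and 3.47 on all arrays and gave -0.06, 0.45 and 0.38 for the same 3 differences.

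**Figure D4:**
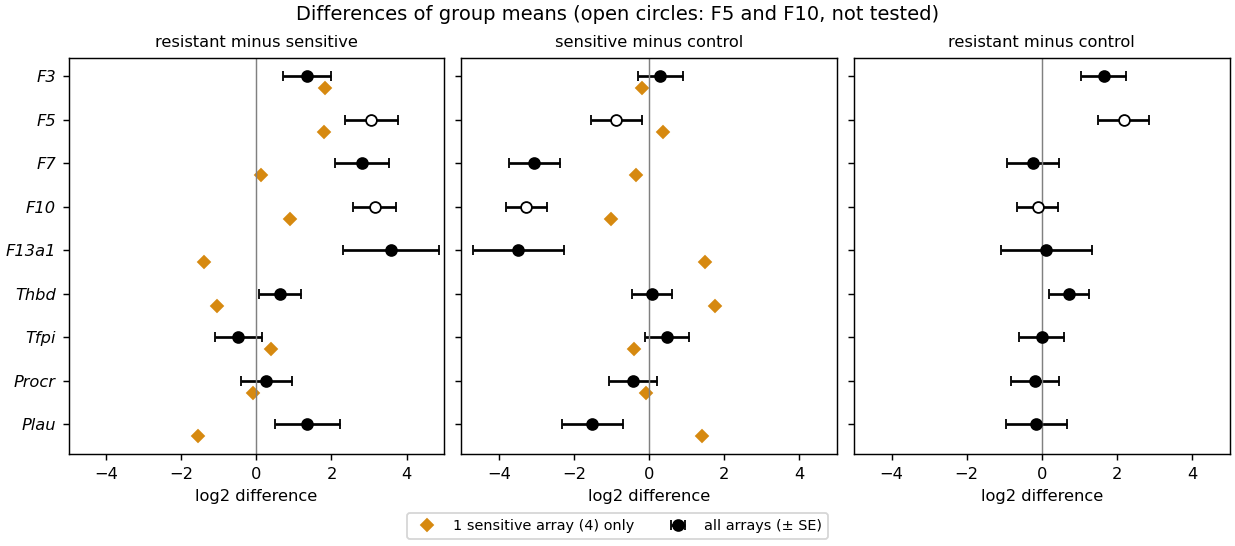
Log2 difference of group means (horizontal axes) of the 9 genes (vertical axis) in 3 comparisons; circles with bars are the difference ± SE over all arrays, open circles are *F5* and *F10*, which were not tested, and diamonds use sensitive array 4 as the only sensitive array. The diamonds of *F7* (0.11 and -0.35) lie near 0, and those of *F13a1* (-1.39 and 1.50) are on the other side of 0.

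Of the 7 genes with a test, resistant minus sensitive was positive in 6, against 42.1% of all genes, and sensitive minus control was negative in 4, against 41.6% of all genes. Of these 7, 0 passed an adjusted p of 0.05 by limma in any of the 3 comparisons, and over all genes 0% passed in resistant minus sensitive, 0% in sensitive minus control and 0% in resistant minus control. At an unadjusted limma p under 0.05, *F7* and *F13a1* were higher in resistant minus sensitive (2 of 7, against 7.07% of all genes) and lower in sensitive minus control (2 of 7, against 11.9%), and *F3* was higher in resistant minus control (1 of 7, against 2.52%). The median difference of the 7 was 1.34, -0.44 and -0.0022 in the 3 comparisons, against -0.07, 0.09 and 0.03 over all genes. Groups did not overlap for *F5* and *F10* in resistant minus sensitive (0.975% of all genes were higher without overlap), for *F10* in sensitive minus control (1.59% were lower without overlap) and for *F5* and *Thbd* in resistant minus control (1.31% were higher without overlap). As deposited, without quantile normalization, *Thbd* overlapped in resistant minus control (6.94 on resistant array 4, 6.99 on control array 2). *F5* and *F10* were selected on these contrasts, so their part of these counts is a description. The 7 others were chosen with earlier results of these data known. Among them *F7*, *F13a1* and *Plau* went together across the 13 arrays (r from 0.70 to 0.90) and are not separate cases. Counts of the 7 are therefore descriptions too, also where arrays are left out. Without sensitive array 4, 2 of the 7 (*F7* and *F13a1*) passed in resistant minus sensitive, where 2.78% of all genes did, and 3 (*F7*, *F13a1* and *Plau*) passed in sensitive minus control, where 4.52% did. With sensitive arrays 1 to 3 left out instead, the medians of the 7 were -0.10 and -0.07 in these comparisons, and 0 passed.

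The rest of the pathway was followed in a list of 48 genes. A probe set was found for 44, and 36 passed the filter and were tested. None passed the adjusted test, and their medians were 0.18 for resistant minus sensitive, -0.19 for sensitive minus control and 0.02 for resistant minus control. At an unadjusted limma p under 0.05, 3 were higher in resistant minus sensitive (8.33%), 4 were lower in sensitive minus control (11.1%) and 0 passed in resistant minus control, close to the shares of all genes given above. Most classical plasma factors gave little signal. Prothrombin (*F2*) read at most 2.62 on the resistant, 2.72 on the sensitive and 2.82 on the control arrays, and *F9* at most 2.01, 2.20 and 2.22. Of the 10 clotting factor and fibrinogen genes, *F8*, *F13b*, *Fga* and *Fgg* were above the floor on fewer than 4 arrays, as was *Plg*, which encodes plasminogen. *Vwf*, the platelet-binding factor that endothelium stores, read at most 4.91 on the resistant, 3.23 on the sensitive and 2.68 on control arrays 1 to 3, but 7.07 and 7.50 on control arrays 4 and 5, where endothelial transcripts were high.

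In the plasminogen system, which holds activators, receptors and uptake receptors, all 7 tested genes had a lower mean in the sensitive than in the control group (median difference -0.59), as did 41.6% of all genes. The low sensitive arrays differed by gene, so this was not a shift on the same arrays. On sensitive arrays 1 to 4 *Plat* read 9.69, 9.99, 6.44 and 6.60, and *Plgrkt* read 4.12, 4.27, 6.91 and 6.27. *Lrp1*, a receptor that clears protease and inhibitor complexes, read 9.26, 7.76, 7.88 and 7.44 on the resistant arrays, 6.25, 5.55, 4.41 and 8.41 on the sensitive arrays and 8.17, 7.86, 7.55, 7.78 and 7.78 on the control arrays. Sensitive arrays 1 to 3 were the 3 lowest for *Lrp1*, as they were for the macrophage and monocyte list, whose part in these differences was not tested. The *Lrp1* differences by limma were 1.93 (SE 0.65, adjusted p = 0.567) for resistant minus sensitive and -1.67 (SE 0.62, adjusted p = 0.335) for sensitive minus control. *Anxa2*, a plasminogen-binding annexin, read 8.16 to 10.97 on the sensitive and 9.99 to 12.02 on the control arrays, a limma difference of -1.15 (SE 0.53, adjusted p = 0.419). The urokinase receptor *Plaur* read 7.86 to 8.91 on the resistant, 6.69 to 9.48 on the sensitive and 8.26 to 9.18 on the control arrays, and the tissue activator *Plat* 6.72 to 10.28, 6.44 to 9.99 and 7.50 to 9.93 on the same groups, both with overlap. *Serpinb2*, an inhibitor of urokinase, read 9.59 to 11.16, 7.71 to 10.81 and 8.83 to 10.12 on them.

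Among the anticoagulants, *Pros1*, which encodes protein S, the cofactor of protein C, averaged 6.55 ± 0.49 on the resistant and 5.23 ± 1.13 on the sensitive arrays (SD, n = 4 each), a limma difference of 1.31 (SE 0.48, adjusted p = 0.604). Its sensitive values were 4.72, 6.13, 3.89 and 6.19, overlapping the resistant range of 6.11 to 6.98. *Anxa5*, which covers the lipid surface that clotting needs, read 9.95, 9.65, 6.49 and 10.08 on the sensitive arrays and 10.17 to 10.59 on the control arrays, without overlap (limma difference -1.36, SE 0.59, adjusted p = 0.394). *Serpinc1*, antithrombin, was the only other listed gene without overlap, at 2.55 to 2.79 on the resistant and 2.13 to 2.41 on the control arrays, all near the floor. That made 1 of the 36 lower in sensitive minus control and 1 higher in resistant minus control. Of all genes, 1.59% and 1.31% did so without overlap. *Mcfd2*, which helps secrete factors V and VIII, averaged 8.51 ± 0.65 on the resistant and 7.48 ± 1.03 on the sensitive arrays (SD, n = 4 each), a limma difference of 1.02 (SE 0.46, adjusted p = 0.702). Its sensitive values were 8.0, 7.63, 5.99 and 8.32, with array 3 the lowest, and its resistant range was 7.80 to 9.28. *Tgm2*, a tissue transglutaminase related to factor XIII, was lower in sensitive minus control by 1.04 (limma, SE 0.32, adjusted p = 0.281). Without sensitive array 4, *Lrp1* and *Tgm2* (2 of the 36) passed the adjusted limma test in both of the comparisons that use the sensitive group. Of all genes, 2.78% passed in resistant minus sensitive and 4.52% in sensitive minus control.

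**Figure D5:**
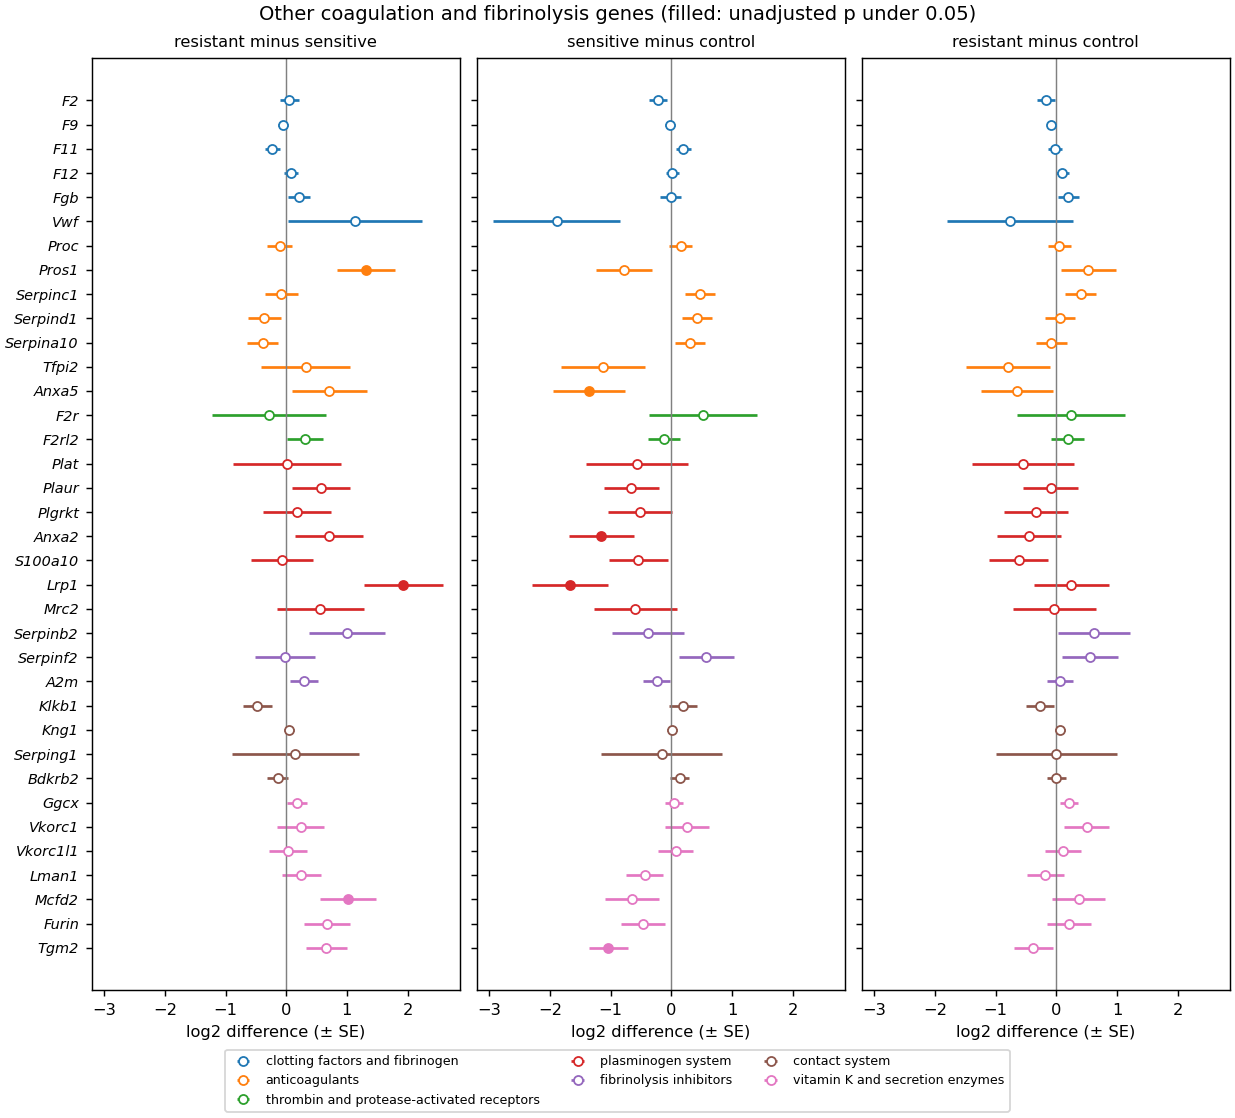
Log2 difference ± SE of the 36 other tested coagulation and fibrinolysis genes (vertical axis, colored by role) in the 3 comparisons (horizontal axes, one scale); filled circles have an unadjusted limma p under 0.05. Filled circles number 3, 4 and 0, and *Vwf* has the widest bars among the clotting factors.

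The genes whose values over the 13 arrays were most like those of each gene differed between the clotting factors. *F10* was closest to *Lyz2*, the macrophage lysozyme (r = 0.99, rho = 0.86), *Arg1*, arginase, and *Snx10*. *F7* was closest to *Hal* (r = 0.97, rho = 0.87), *Fcgr4*, an Fc receptor, and *Itgam*, an integrin of myeloid cells, and *F13a1* to *Tyrobp*, a myeloid signaling adaptor (r = 0.99, rho = 0.85), *Adam8* and *Pla2g7*. For these 3 genes the likeness spans the gap between sensitive arrays 1 to 3 and the rest, and over the other 10 arrays r was 0.76 for *F10* with *Lyz2*, 0.72 for *F7* with *Hal* and 0.84 for *F13a1* with *Tyrobp*. *F5* was closest to *Glb1*, the lysosomal beta-galactosidase (r = 0.94, rho = 0.95), *Marco*, a scavenger receptor (r = 0.94, rho = 0.89), and the lipoxygenase *Alox15* (r = 0.89, rho = 0.85). There r did not depend on that gap, at 0.96, 0.96 and 0.87 over the 10 arrays. *F3* was closest to *Plod2*, a collagen hydroxylase (r = 0.87), *Ccno* and *Trio*, *Thbd* to *Fndc3b* (r = 0.92), *Atp6v1b2* and *Spire1*, *Tfpi* to *Arhgef5* (r = 0.97), *Soga1* and *Tspan9*, *Procr* to *Map4k4* (r = 0.91), *Rnf11* and *Fabp4*, and *Plau* to *Tbc1d9* (r = 0.93), *Dtx4* and *Hs6st1*. Without the 2 arrays farthest from each gene's median, the r of the first-named genes was 0.97 for *F10*, 0.93 for *F7*, 0.94 for *F13a1*, 0.92 for *F5*, 0.90 for *F3*, 0.86 for *Thbd*, 0.92 for *Tfpi*, 0.80 for *Procr* and 0.84 for *Plau*. These genes were picked as the highest of all tested genes, so the correlations are descriptions and carry no p.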

How the data were processed

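Gene expression was read on 13 arrays of CD31-sorted cells, and the labels put 4 in the resistant, 4 in the sensitive and 5 in the control group. Per the labels, biotin-labeled cRNA was processed with MAS5 by the authors, whereas the methods describe Illumina bead chips and BRB-ArrayTools, so the sources disagree. The deposited table of 45101 probe sets was taken to hold log2 intensities made by the authors. The authors' normalization and logarithm base were not given in the sources used here. Every fold change therefore assumes a base of 2.

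Arrays were quantile normalized, values under the 30th percentile (2.01) were raised to it, and the probe set of highest mean was kept for each of 18193 genes. Of the probe sets, 34958 had 1 gene symbol, 932 had several and 9211 were not listed. Genes above the floor on at least 4 arrays were tested, which kept 15384 and left out 2809. Groups were compared in one fit with limma 3.58.1 in R 4.3.3 (lmFit, eBayes with an intensity trend, 10 residual degrees of freedom), two-sided, with Benjamini-Hochberg adjustment over all genes tested and a threshold of 0.05. The fit was tested on simulated data. Between 14316 and 14678 genes were above the floor on each array, counts that quantile normalization and a common floor make alike. Before normalization the mean intensity, trimmed by 2% at each end, was 19.36 and 19.38 on sensitive arrays 1 and 2. It was 23.77 to 33.47 on the others. Normalization raised some values there, such as *Tfpi* on sensitive array 1 from 5.84 to 6.61 and *F3* on sensitive array 2 from 7.32 to 8.16. Replicate arrays correlated at 0.896 to 0.955 in the resistant, 0.664 to 0.919 in the sensitive and 0.906 to 0.985 in the control group. The number of arrays limits the precision. The labels call the arrays of a group biological replicates but do not tie them to single animals or tumors, and p-values reflect the spread among these samples.

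The 9 genes and all gene lists were chosen with earlier results of these data known. Named genes are the 9 genes, the other pathway genes of smallest unadjusted p (at most 3 in each comparison) or that a role group is described by, the 3 genes most correlated with each of the 9, and *Pecam1*. *Csf1r*, *Gata6*, *Msln* and *Rarb* were named after their values were seen. No level of one probe set was set against another. Promoter windows are RefSeq sequences of build GRCm38.p6. Alternatives covered scaling, floor, filter, probe sets, variance model, a Student t-test with pooled variance, the replicate block and arrays left out.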

Additional observations from a re-analysis of the deposited data

Results flagged for a closer look

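Each of the 9 genes was checked in each group for an array far from the others, 27 groups of arrays in all, by the gap of the most extreme array to its neighbor as a share of the whole range. Chance flags about 1 in 20 groups. The 3 that stood out are descriptions: *F10* was selected on these arrays, and *F7* and *F10* went together across the arrays, so they do not count as separate cases. On sensitive array 4, *F7* was the highest of its group with a gap of 0.962 of the range, and *F10* was the highest with 0.929. *Plau* was lowest on control array 3, with a gap of 0.826. Sensitive array 4 also held the highest *F5*, *F13a1*, *Thbd* and *Plau* of its group, without passing this check.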

How the results depend on the processing

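The 9 genes were refitted in 3 comparisons under 28 alternatives. Of 729 planned values, 673 kept their direction and, where tested, their side of the threshold, 48 turned direction, 5 passed the threshold (*F7* and *F13a1* in both comparisons with the sensitive group and *Plau* in sensitive minus control, each without sensitive array 4) and 3, of *F5* and *F10*, which have no test, moved by more than the spread between replicates. Sizes could change without either, and *F7* was 0.11 in resistant minus sensitive and -0.35 in sensitive minus control with sensitive array 4 as the only sensitive array. The cause of these changes was not tested. With sensitive array 4 as the only sensitive array, 2 genes passed in resistant minus sensitive and 4 in sensitive minus control, and resistant minus sensitive became 1.81 for *F5*, 0.90 for *F10*, -1.39 for *F13a1*, -1.05 for *Thbd*, 0.39 for *Tfpi*, -0.099 for *Procr* and -1.55 for *Plau*. Sensitive minus control became -0.19 for *F3*, 0.38 for *F5*, -1.01 for *F10*, 1.50 for *F13a1*, 1.76 for *Thbd*, -0.39 for *Tfpi* and 1.40 for *Plau*. Without control arrays 4 and 5, sensitive minus control was 0.097 for *Procr*, and resistant minus control was 0.36 for *Tfpi*, 0.37 for *Procr* and 0.094 for *Plau*. As deposited, without quantile normalization, sensitive minus control was -0.14 for *F3* and -0.28 for *Thbd*. The resistant and control values of *Thbd* then overlapped. With the mean of all probe sets, *Tfpi* was 0.20 in resistant minus sensitive and -0.40 in sensitive minus control, and *Plau* 0.12 in resistant minus control. With array weights 34 genes passed in resistant minus control, *F3* was -0.054 in sensitive minus control and 0.81 in resistant minus control, *F5* was 1.43 in resistant minus control, and *F13a1* was -0.040 and *Plau* 0.23 in resistant minus control. A floor at the 50th percentile let 1 gene pass in resistant minus sensitive, and a fit of those 2 groups alone 2. A Student t-test with pooled variance called 0 genes in each comparison after Benjamini-Hochberg adjustment. Its unadjusted p was under 0.05 for 529, 1371 and 1043 genes in resistant minus sensitive, sensitive minus control and resistant minus control. It lacks the random variance model and the gene filters of the methods, so these counts are not those of the authors' test. Replicate numbers did not pair the arrays (same-number r from -0.43 to 0.53). With the replicate block 0 genes passed in each comparison, and resistant minus control was -0.13 for *F13a1*, 0.20 for *Tfpi* and 0.11 for *Procr*. An alternative chosen after seeing the data left out sensitive arrays 1 and 2 and resistant arrays 2 and 3, where mesothelial genes were high. It let 3 genes pass in sensitive minus control and gave 2.57 for *F3*, 2.32 for *F5*, 1.86 for *F13a1*, 0.56 for *Tfpi* and 0.17 for *Plau* in resistant minus sensitive, -0.69 for *F3*, 0.047 for *F5*, -0.96 for *F13a1*, -0.82 for *Tfpi*, -1.22 for *Procr* and -0.77 for *Plau* in sensitive minus control, and 0.047 for *F7* and 0.34 for *F10* in resistant minus control. With single arrays left out, 0 to 428 genes passed in resistant minus sensitive (428 without sensitive array 4, 4 without control array 1), 0 to 696 in sensitive minus control (696 without sensitive array 4, 1 without control array 3) and 0 in resistant minus control. Over the same fits, resistant minus sensitive ran from 0.84 to 1.83 for *F3*, 0.085 to 1.19 for *Thbd*, 0.85 to 2.33 for *Plau*, -1.05 to 0.0042 for *Tfpi* and -0.37 to 0.72 for *Procr*. Sensitive minus control ran from -0.18 to 0.80 for *F3*, -0.47 to 0.63 for *Thbd*, -0.0064 to 1.05 for *Tfpi* and -0.85 to 0.20 for *Procr*. Resistant minus control ran from -0.72 to 0.050 for *F7*, -0.32 to 0.095 for *F10*, -0.22 to 0.59 for *F13a1*, -0.26 to 0.20 for *Tfpi*, -0.51 to 0.28 for *Procr* and -0.65 to 0.25 for *Plau*. Values near the floor are dim and their differences are understated.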
